A study of Danio rerio with 4 samples.

Results

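Transcripts of 8 transcription factors of angioblasts, the precursor cells of blood vessels, were described in zebrafish endothelial cells taken from the ventral or the dorsal part of the posterior cardinal vein, the main trunk vein of the embryo. The members were fixed by name and Ensembl identifier, not by a cut on measured values, but with earlier results of these data known. The members are 8 of the 32434 gene rows of the count table, of which 12123 had a count. They were grouped into a vessel-type class of 4 genes (etsrp, FLI1, fli1rs and SOX7) and a blood-type class of 4 genes (TAL1, LMO2, GATA2 and gfi1aa). The embryos carried Tg(fli1:gal4;uasKaede), in which the fli1 promoter drives Gal4 and Gal4 drives Kaede, a protein that light switches from green to red. At 24 hours post fertilization the ventral or the dorsal part of the vein was photoconverted, and red cells from 6 embryos per group were sorted, giving 2 ventral and 2 dorsal libraries. All 4 libraries shared transgene, stage and sort and differed by the side of the vein. One of the members, FLI1, is the gene whose promoter marks the sorted cells, and zebrafish reporters under this promoter are known to mark some blood and neural crest derived cells as well.

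Vessels and the first blood cells share precursors in the lateral mesoderm of the zebrafish embryo. In these precursors ETS factors (a family with a common DNA-binding domain), led by etsrp, switch on the endothelial programme, while the TAL1, LMO2 and GATA complex acts in both lineages and is kept by blood cells. The series title places a niche of multipotent angioblasts in the floor of the cardinal vein, so the comparison asks which precursor factors the ventral cells carry.

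Gene counts totalled 51376 to 115876 per library, and 1 count was worth 8.63 to 19.5 CPM (counts per 1000000 gene counts). The dorsal library 2 was the shallowest and had the least gene RNA per spike-in count, at 4.68 gene counts per ERCC count against 9.68 to 12.5 in the others. Endothelial cells were present by their markers, with 34 of 38 matched rows of an endothelial effector list (receptors, junction and other surface or signalling genes) counted at least once. The count of cdh5, a gene of endothelial junctions, was 2 and 1 in ventral libraries and 4 and 0 in dorsal libraries. Red cell transcripts outnumbered endothelial ones in every library. Summed erythroid genes that lay below the counting ceiling gave 15760 and 14890 CPM in ventral and 21450 and 16290 CPM in dorsal libraries, against 3616 and 3131 CPM and 1070 and 954 CPM for endothelial effectors. In such bulk samples fewer cells of a type and less RNA per cell cannot be told apart. No member exceeded 63 counts, far below the ceiling of the counts.

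The vessel-type factors were a larger part of the 8 factors' transcripts on the ventral side. They made up 28.2% (95% exact Clopper-Pearson interval 21.1 to 36.1) and 34.0% (24.9 to 44.0) of the members' counts in ventral libraries 1 and 2, from 42 of 149 and 35 of 103 counts. In dorsal libraries 1 and 2 they made up 11.4% (6.36 to 18.4) and 16.1% (8.02 to 27.7), from 14 of 123 and 10 of 62 counts. Both ventral libraries lay above both dorsal ones, at 31.1% ± 4.10 against 13.8% ± 3.36 (SD, n = 2 libraries each). The ventral excess was 17.3 percentage points, more than the spread within either pair. How often such shares of other sets of genes keep the sides apart was not computed. The intervals of single libraries cover counting error only, and those of both ventral libraries overlapped that of dorsal library 2. This share is taken within a library and does not depend on how libraries are scaled to each other. No p-value is given, since the members were chosen with results of these libraries known.

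The 2 classes also differed in how their summed levels lay between the sides. Vessel-type counts summed to 387 and 440 CPM in ventral libraries 1 and 2 and to 121 and 195 CPM in dorsal libraries 1 and 2. Blood-type counts summed to 987 and 855 CPM in ventral and to 941 and 1012 CPM in dorsal libraries. The vessel-type levels of the sides did not overlap, and the blood-type levels did. The endothelial effector sums, given above, did not overlap either. Of single genes with at least 10 counts, 20.0% had both ventral libraries above both dorsal ones. The share of gene sums with this order was not computed. With each of the 8 members left out in turn, the vessel-type share of both ventral libraries stayed above that of both dorsal libraries. The ventral excess in mean share lay between 11.5 points without etsrp and 22.1 points without LMO2. The single libraries came closest without TAL1. The lower ventral share was then 40.0% (library 1), and the higher dorsal share was 35.7% (library 2). Since the members were chosen with results known, leaving them out singly is not an independent check.

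**Figure D1:**
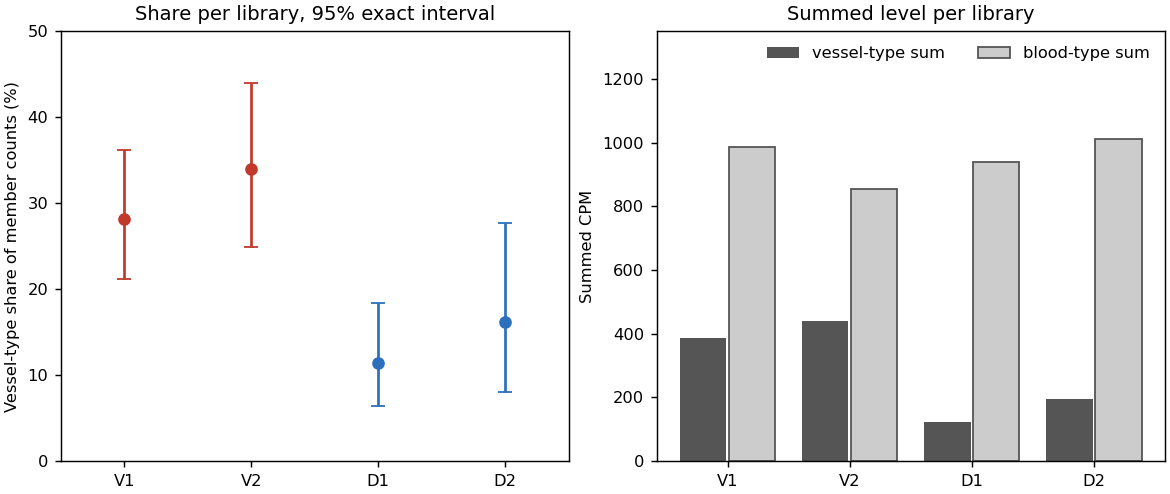
Left, the share of the 8 members' counts that belonged to the 4 vessel-type genes in each ventral (V) and dorsal (D) library, with 95% exact intervals for counting error. Right, summed CPM of the vessel-type and the blood-type genes; vessel-type sums are 387 and 440 CPM in V1 and V2 against 121 and 195 CPM in D1 and D2, while blood-type sums lie between 855 and 1012 CPM in all 4 libraries.

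Member by member, ventral and dorsal libraries were compared with edgeR's quasi-likelihood test over the whole table. Of the 8 members 4 passed edgeR's filter on low counts (etsrp, TAL1, LMO2 and GATA2) and were tested among 1399 genes. None of these 4 passed an adjusted p of 0.05, against 0.429% of tested genes called higher and 0% called lower in the ventral libraries. FLI1, fli1rs, SOX7 and gfi1aa had too few counts for that filter and are given from a wider fit of the 4163 genes with at least 10 counts in all. That wider fit called 0% of its genes at an adjusted p of 0.05, and none of the 8 members. At an unadjusted p under 0.05 it had 6.25% of genes higher and 2.86% lower in ventral libraries. Of the members only etsrp lay under that p in the wider fit, at 0.00764.

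The ETS factor gene etsrp (ENSDARG00000053868), also called etv2, is the early regulator that starts the endothelial programme in zebrafish. It gave 157 and 189 CPM in ventral libraries 1 and 2 and 51.8 and 58.4 CPM in dorsal libraries 1 and 2, from 17, 15, 6 and 3 counts. The sides did not overlap, and the libraries of a side lay close to each other. Its level was 173 ± 22.5 CPM in ventral and 55.1 ± 4.68 CPM in dorsal libraries (SD, n = 2 each). The ratio of summed counts per library total was 3.16, with a counting interval of 1.48 to 7.54. In edgeR's test the log2 fold was 1.66 ± 0.54 (SE), with an unadjusted p of 0.0122 and an adjusted p of 0.255 over 1399 genes. At an unadjusted p under 0.05, 7.51% of the tested genes were higher and 4.65% lower in ventral libraries. Scaled to endothelial effector counts instead of all genes, the fold of etsrp stood at -0.047 ± 0.71.

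FLI1 (ENSDARG00000054632) and fli1rs (ENSDARG00000040080) are the zebrafish pair of fli1 genes, ETS factors that act after etsrp and keep endothelial identity. FLI1 gave 83.0 and 88.0 CPM in ventral libraries and 0 and 97.3 CPM in dorsal libraries 1 and 2, from 9, 7, 0 and 5 counts. Its dorsal library 2 lay above both ventral libraries and its dorsal library 1 had no count, so the sides overlapped. A count of 0 in dorsal library 1 allows up to 25.9 CPM (3 counts), and the counting interval of dorsal library 1 over 2 ended at a ratio of 0.484. The log2 fold of the wider fit was 1.35 ± 1.06 (SE), with an adjusted p of 0.819 by edgeR. Its direction rested on dorsal library 1: without that library the fold stood at -0.27. Without dorsal library 2, where the dorsal side is at 0, edgeR's test called the gene (adjusted p = 0.0188), but the dorsal side is then 1 library with no count, assumed to vary like the ventral pair, and the fitted fold is no bound.

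The fli1rs gene, also called fli1b, showed the same gap in dorsal library 1. It gave 46.1 and 50.3 CPM in ventral and 0 and 38.9 CPM in dorsal libraries, from 5, 4, 0 and 2 counts. The ventral libraries lay above both dorsal ones, by less than 1 count in the case of dorsal library 2. The ratio of summed counts was 4.01 with a counting interval of 0.829 to 38.1, and the log2 fold of the wider fit 1.86 ± 1.17 (SE), with an adjusted p of 0.72 by edgeR. Without dorsal library 1 the fold was 0.21. A difference in fli1rs was not detectable at this depth. FLI1 and fli1rs are paralogues, and the sources used here do not say how reads shared by similar genes were counted.

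SOX7 (ENSDARG00000030125), a SOXF factor that acts in arterial and venous differentiation of zebrafish, was missing from the other dorsal library. It gave 101 and 113 CPM in ventral libraries and 69.0 and 0 CPM in dorsal libraries 1 and 2, from 11, 9, 8 and 0 counts. Ventral levels lay above both dorsal levels, and the 0 in dorsal library 2 allows up to 58.4 CPM (3 counts). The summed ratio was 2.23 (counting interval 0.939 to 5.84) and the fold of the wider fit 1.24 ± 0.75 on the log2 scale (SE; adjusted p = 0.696, edgeR). Without dorsal library 2 that fold was 0.67, and without dorsal library 1, which leaves the dorsal side at 0, it was fitted at 6.1, which is no bound. Thus 3 of the 4 vessel-type genes had a dorsal library without a count, while etsrp was counted in all 4 libraries.

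TAL1 (ENSDARG00000019930), also called scl, is a basic helix-loop-helix factor needed for blood and for haemogenic endothelium, and was the member with values in the opposite order. It gave 406 and 390 CPM in ventral libraries and 544 and 662 CPM in dorsal libraries, from 44, 31, 63 and 34 counts. Both ventral libraries lay below both dorsal ones, at 398 ± 11.4 against 603 ± 83.5 CPM (SD, n = 2). The ratio of summed counts was 0.688, with a counting interval of 0.502 to 0.940. In edgeR's test the log2 fold was -0.59 ± 0.26 (SE), with an unadjusted p of 0.0484 and an adjusted p of 0.403. Without dorsal library 2 the fold was -0.31 and scaled to ERCC counts -0.25. The erythroid sum, given above, likewise lay lower on the ventral side in each library, and its part in the TAL1 values was not tested.

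LMO2 (ENSDARG00000095019), the LIM-domain bridge between TAL1 and GATA factors, did not share the order of its partner. It gave 286 and 251 CPM in ventral and 216 and 195 CPM in dorsal libraries, from 31, 20, 25 and 10 counts. Ventral libraries lay above dorsal ones by a small margin, with a summed ratio of 1.3 (0.827 to 2.06). The log2 fold was 0.39 ± 0.33 (SE; adjusted p = 0.782, edgeR).

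GATA2 (ENSDARG00000059327), a zinc-finger factor of early blood and of endothelium, is listed apart from its paralogue gata2b. It gave 111 and 163 CPM in ventral and 86.3 and 117 CPM in dorsal libraries, from 12, 13, 10 and 6 counts. Dorsal library 2 lay above ventral library 1, so the sides overlapped, and the log2 fold was 0.48 ± 0.53 (SE; adjusted p = 0.863, edgeR), or 0.068 without dorsal library 1 and 0.23 without ventral library 2. The paralogue gata2b had 1 and 2 ventral counts and no dorsal count, too few for a comparison.

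The repressor gene gfi1aa (ENSDARG00000020746), which acts with gfi1b in primitive red cells and in haemogenic endothelium of zebrafish, differed more between libraries of a side than between sides. It gave 184 and 50.3 CPM in ventral and 94.9 and 38.9 CPM in dorsal libraries, from 20, 4, 11 and 2 counts. Ventral library 1 exceeded ventral library 2 by 3.67-fold, with a counting interval of 1.23 to 14.8. The fold of the wider fit was 0.73 ± 0.67 on the log2 scale (SE; adjusted p = 0.855, edgeR), and without ventral library 1 it stood at -0.56.

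**Figure D2:**
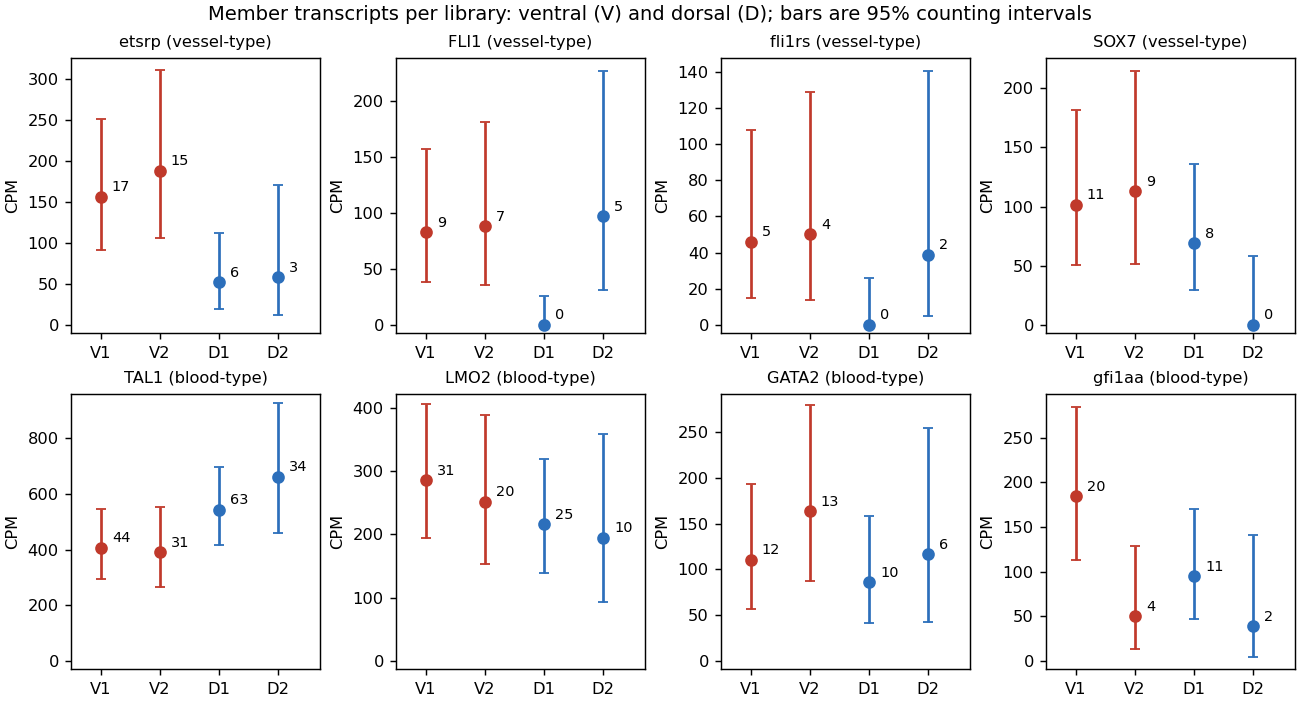
CPM of each member in ventral (V, red) and dorsal (D, blue) libraries; bars are 95% counting intervals, up to 3 counts where the count is 0, and the number beside each point is its count. For etsrp both ventral points lie above both dorsal points, for TAL1 both lie below, and FLI1 and fli1rs are at 0 in D1 and SOX7 at 0 in D2.

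Counted over the 8 members, 4 (etsrp, fli1rs, SOX7 and LMO2) had both ventral libraries above both dorsal ones, and 1 (TAL1) had both below. Among the 4163 genes with at least 10 counts 20.0% had both above and 17.7% had both below. The 4 vessel-type genes had log2 folds from 1.24 to 1.86 in the wider fit, with a median of 1.5. The 4 blood-type genes lay between -0.58 and 0.73, with a median of 0.43, and all genes of that fit had a median of 0.018. In that fit the 20 endothelial effectors with at least 10 counts all had a fold above 0, with a median of 1.66. Folds like those of the vessel-type genes were therefore not particular to them. Ranked among all 4163 folds, the vessel-type genes stood between the 89.6th and the 95.3rd percentile. The blood-type genes stood at the 17.6th (TAL1), 69.6th (LMO2), 73.6th (GATA2) and 81.3rd (gfi1aa) percentile. With all libraries the classes did not overlap in rank, but this order rested on single libraries. Without dorsal library 1 the folds of FLI1 (-0.27) and fli1rs (0.21) in the wider fit fell below that of gfi1aa (1.54). The fold of etsrp, taken from the fit of genes past edgeR's filter, was then 1.40, also below that of gfi1aa. The fold of SOX7, whose dorsal side was then at 0, did not fall below it.

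Ratios of 2 members within a library are free of the scaling between libraries. For every 100 counts of TAL1, ventral libraries held 38.6 and 48.4 counts of etsrp, and dorsal libraries held 9.52 and 8.82. For every 100 counts of LMO2 etsrp had 54.8 and 75.0 against 24 and 30, and per 100 GATA2 counts 142 and 115 against 60 and 50. In 7 of the 16 pairs of a vessel-type and a blood-type gene both ventral ratios lay above both dorsal ratios, and all 4 pairs with TAL1 were among these. TAL1 was itself the only member with both ventral libraries below both dorsal ones. The 16 pairs reuse the same 8 genes, so they are not separate observations. How often pairs of other genes show this order was not computed. In the other 9 pairs the sides overlapped, among them all 4 pairs with gfi1aa, whose own libraries differed as described.

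Set against endothelial or erythroid transcripts, the ratio of ventral to dorsal was higher for the vessel-type than for the blood-type sum. For every 100 endothelial effector counts, vessel-type genes together had 10.7 and 14.1 in the ventral libraries, against 11.3 and 20.4 on the dorsal side. The sides overlapped, and the ratio of ventral to dorsal was 0.866 with a counting interval of 0.542 to 1.43. Blood-type genes had 27.3 and 27.3 per 100 in ventral libraries against 87.9 and 106 on the dorsal side, a ratio of 0.293 (0.236 to 0.366). In edgeR's fit scaled to endothelial effector counts, all 1399 tested genes had a median log2 fold of -1.75. A low ratio by this reference is therefore not particular to blood-type genes.

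TAL1 had the lowest of these ratios, with 11.2 and 12.4 counts per 100 endothelial effector counts on the ventral side against 50.8 and 69.4 on the dorsal side. LMO2 gave 7.91 and 8.03 against 20.2 and 20.4, and GATA2 3.06 and 5.22 against 8.06 and 12.2, with no overlap of sides for either gene. The share of all genes without overlap by this reference was not computed, so this is not a result about these members. For etsrp the values were 4.34 and 6.02 against 4.84 and 6.12, which overlapped. In the edgeR fit scaled to this sum TAL1 (log2 fold -2.31 ± 0.32, SE) and LMO2 (-1.34 ± 0.42) were called lower, GATA2 (-1.23 ± 0.62) and etsrp were not, and 86.2% of all tested genes were called lower. Since most genes were called in that scaling, the calls of TAL1 and LMO2 are not a result about the members. In that fit etsrp stood at the 98th percentile of all folds and TAL1 at the 10.8th.

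Per 100 erythroid counts every ratio was higher. A change of reference moves the summed ratio of every gene by the same factor, so the contrast between the classes is unchanged. Vessel-type genes had 2.46 and 2.96 per 100 on the ventral side against 0.563 and 1.2 on the dorsal side, a ratio of 3.69 (2.31 to 6.10). Blood-type genes gave 6.27 and 5.74 against 4.39 and 6.21, which overlapped, a ratio of 1.25 (1.0 to 1.56). TAL1 gave 2.58 and 2.62 against 2.53 and 4.06, a ratio of 0.888 (0.648 to 1.21). LMO2 stood between the references, at 0.393-fold (0.251 to 0.623) per endothelial and 1.67-fold (1.07 to 2.65) per erythroid count. The same held for GATA2, at 0.422 (0.216 to 0.845) and 1.8 (0.92 to 3.6). It also held for gfi1aa, at 0.498 (0.244 to 1.07) and 2.12 (1.04 to 4.54). Endothelial sums lay higher and erythroid sums lower on the ventral side, so a gene of equal CPM on both sides also stands between them. This position is therefore not particular to these genes.

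**Figure D3:**
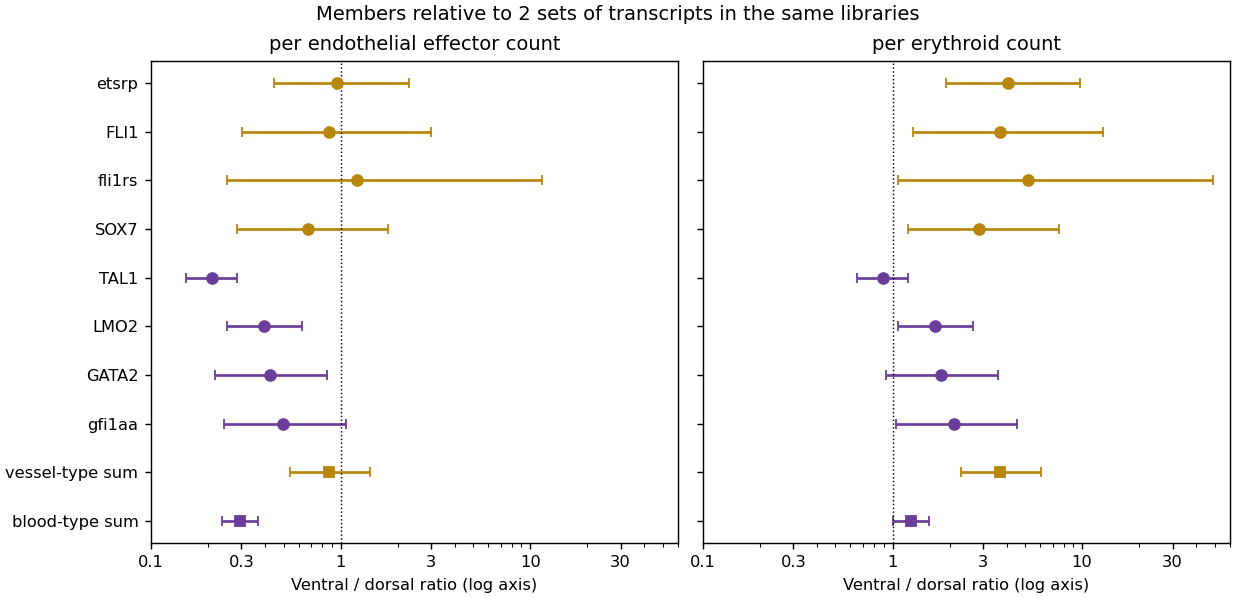
Ratio of ventral to dorsal summed counts for each member and for the class sums, relative to endothelial effector counts (left) and to erythroid counts below the ceiling (right), on a log axis with 95% counting intervals. The vessel-type sum lies at 0.866 on the left and 3.69 on the right, the blood-type sum at 0.293 and 1.25. All ratios move by the same factor between the panels. With edgeR's endothelial scaling the median log2 fold of all tested genes was -1.75.

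Marker sums of other cell types also differed between libraries. Among the genes with at least 10 counts, all 20 endothelial effectors had a fold above 0 (median log2 fold 1.66) and 15 of 17 erythroid genes below the counting ceiling had one below 0 (median -0.42), and none of these was called. Of all 4163 genes with at least 10 counts, 51.1% had a fold above 0. Epidermal markers summed to 3976 and 1660 CPM in ventral and 777 and 1246 CPM in dorsal libraries, with krt4 and cyt1l counted in ventral library 1 alone. The epidermal and the endothelial effector sums both hold krt18a.1, so they are not fully separate. Mural and mesenchymal markers summed to 1541 and 956 CPM against 544 and 311 CPM. One of them, TAGLN, was among the genes called by edgeR's test, at a log2 fold of 1.96 ± 0.29 (SE; adjusted p = 0.0183). That gene gave 59 of 167 and 52 of 76 counts of the list in ventral libraries, and 19 of 63 and 7 of 16 in dorsal ones. Of the 24 matched rows of the list 9 had no count in any library, among them a second TAGLN row, acta2 and PDGFRA. Myeloid markers summed to 249 and 138 CPM against 25.9 and 681 CPM, where lyz gave 17 and CEBPA 10 of 35 counts, and mfap4, mpeg1 and csf3r genes had at most 2 counts in any library. Skeletal muscle markers summed to 43.1 to 311 CPM and neural markers to 156 to 314 CPM, without a common order of the sides. The part of these cells in the members' values was not tested.

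Among the other genes of the pathways, 4 lists of factors were examined, and none of their genes with at least 10 counts was called. For comparison, 51.1% of all 4163 genes with at least 10 counts had a fold above 0. In the ETS family 3 of 8 such genes were members, and of the other 5 genes 4 had a fold above 0. These 5 stood lower than the members, with elf2a at a log2 fold of 0.98 ± 0.73 (SE), SPI1 at 0.56 ± 1.03, ELK1 at 0.40 ± 0.94, GABPA at 0.38 ± 0.44 and ELF2 at -0.14 ± 0.47. GABPA and ELF2 are widely expressed ETS factors, and SPI1 is the ETS factor of myeloid cells. The endothelial ETS genes ERG, ETS1 and ELK3 were near the floor, with 0, 2 and 6 counts over all libraries, so no comparison was possible at this depth.

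In the list of TAL1, LMO2 and GATA partners 3 of 10 genes were members, and of the other 7 genes 4 had a fold above 0. The ID genes, whose products bind E proteins and so keep helix-loop-helix factors such as TAL1 off DNA, were ordered opposite to TAL1. ID1 gave 23 and 14 ventral and 9 and 3 dorsal counts, ID2 gave 6 and 3 against 1 and 1, and ID3 gave 13 and 8 against 4 and 2. All 3 had both ventral libraries above both dorsal ones in CPM, as had 20.0% of the 4163 genes with at least 10 counts. Their log2 folds were 1.46 ± 0.45 (SE), 1.88 ± 0.98 and 1.61 ± 0.60, with adjusted p of 0.458, 0.634 and 0.504 in edgeR's wider fit. The endothelial effectors had a median of 1.66 in that fit. A link between the ID genes and the level of TAL1 was not tested. The LIM-only gene lmo4a stood at 1.48 ± 0.68, close to the ID genes. The red cell factor gata1a, partner of TAL1 in erythroid cells, stood at -0.26 ± 0.28 and the co-repressor CBFA2T3 at -0.16 ± 0.85.

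Factors of haemogenic endothelium and blood stem cells were split. TAL1, LMO2 and gfi1aa were 3 of the 10 genes, and of the other 7 genes 3 had a fold above 0, with a median log2 fold of -0.31. IKZF1, a lymphoid and early blood factor, had the lowest fold, -1.03 ± 0.67 (SE), on 4 and 4 ventral and 14 and 2 dorsal counts. The zinc-finger gene drl, expressed in the early blood and vessel mesoderm, stood at -0.36 ± 0.24 and MYB at -0.43 ± 0.60. RUNX1, needed for blood stem cells to emerge, had no count in any library, which allows up to 8.45 CPM over the 4 libraries (3 counts).

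Of the 10 vessel factors 5 were members, namely the 4 vessel-type genes and GATA2, which is classed here as blood-type. All 5 others had a fold above 0, with a median log2 fold of 0.86. These were the venous regulator NR2F2 at 2.92 ± 1.09 (SE), on 6 and 4 ventral counts and 1 and 0 dorsal counts, KLF6 at 1.14 ± 0.59, the flow-responsive klf2b at 0.86 ± 0.61, HEY2 at 0.80 ± 0.96 and MEF2C at 0.72 ± 0.98. None passed the test over all genes. At the SOXF gene sox18 a single count was seen.

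**Figure D4:**
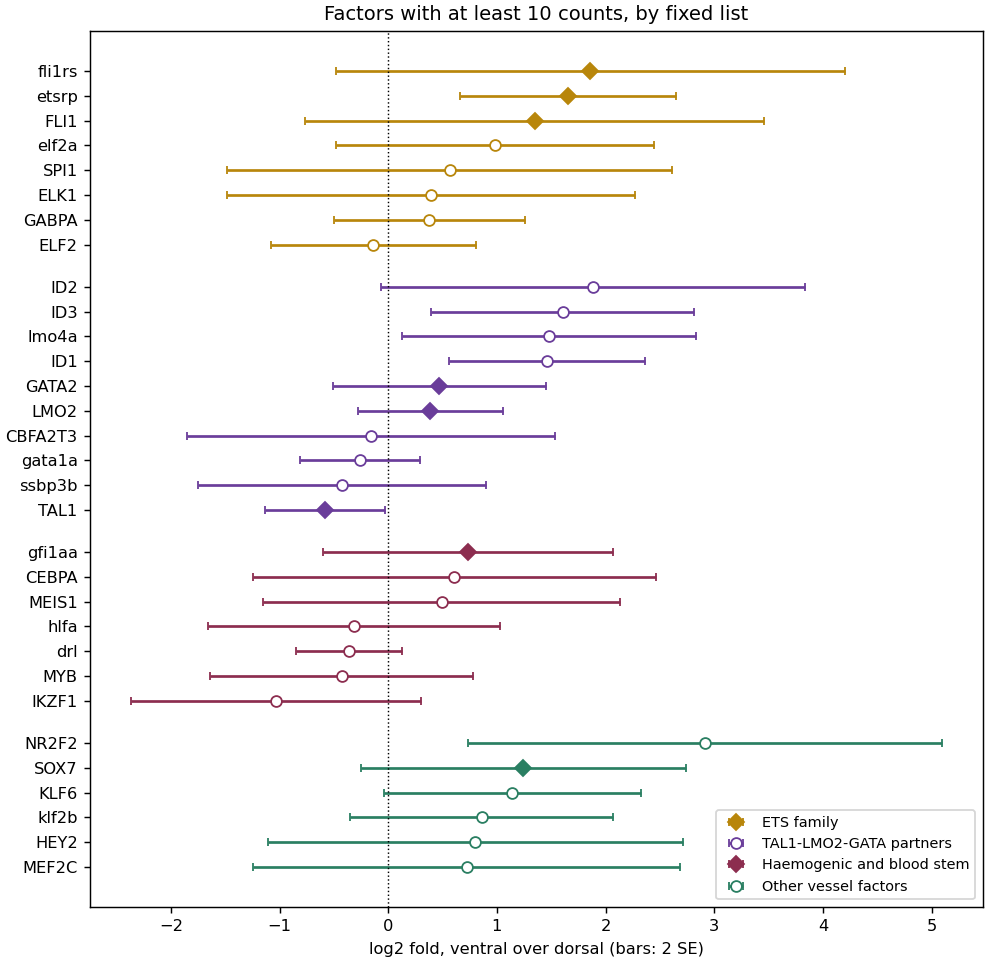
Log2 fold of ventral over dorsal libraries, with bars of 2 SE from the fit of genes with at least 10 counts, for the factors of the 4 lists; filled diamonds are members, open circles other genes, and a gene of several lists is drawn once. Vessel-type members lie between 1.24 and 1.86, and TAL1 at -0.58 is the only member below 0.

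The genes whose pattern over the 4 libraries lay nearest to that of etsrp, among 1172 tested genes with a symbol and a mean of at least 5 counts, were JUNB, rap1b and FSTL1. Their centred log2 CPM differed from that of etsrp by a root mean square of 0.10, 0.13 and 0.13. Nearest to TAL1 were TOB1, NDUFA2 and icn, at 0.069, 0.072 and 0.081. With 4 libraries such likeness is a description only.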

How the data were processed

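Per the labels' protocols, RNA of the sorted cells was extracted with TRIzol and ERCC spike-ins, and libraries were made by CEL-Seq, which tags transcript ends with a library barcode and a unique molecular identifier. CASAVA 1.8, Bowtie2 2.1.0, HTSeq 0.5.4p3 and the build Zv9 are named, without a role, by the submitters' processing notes. The authors deposited whole-number counts per gene. The sources used here do not say whether reads or identifiers were counted. The highest count equals the number of possible 5-base identifiers, so counts have a ceiling. The 5 rows naming no gene held 96.4% to 97.4% of a column's total and were kept out of library sizes.

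Genes were named from a table of Ensembl identifiers (20769 of 32434 matched), and its symbols are printed as given. No genome of that build was used, so no coordinates or sequences are given. The sources used here do not state strand handling.

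Counts were compared with edgeR 4.0.16 in R 4.3.3 (quasi-likelihood F test, TMM factors, filterByExpr, Benjamini-Hochberg over all tested genes, 2-sided, 2 residual degrees of freedom). The test was tried on counts drawn with known folds, with the same spread for all genes and changes only in genes past edgeR's filter. That trial does not show how the test behaves on these libraries or on sparser genes. The standard error is the log2 fold divided by the square root of F. A second fit used genes with at least 10 counts in all. Ratios of counts carry exact conditional 95% intervals and levels exact Poisson ones (SciPy 1.17.1), relative to total gene counts. A count of 0 has 3 counts per library as its upper limit. Intervals and floors cover counting error only. The labels do not say that libraries of a side came from separate embryo pools, so p-values reflect only how these libraries vary, possibly for technical reasons. Alternatives were DESeq2 1.42.0, voom in limma 3.58.1, other filters and scalings, and each library left out. All members are named, and of the lists the genes with at least 10 counts could be named. Genes with fewer counts, krt4, cyt1l, krt18a.1, lyz, cdh5 and those nearest in pattern stand beside them. The members and lists were chosen with earlier results of these data known.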

Additional observations from a re-analysis of the deposited data

How the results depend on the processing

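The number of genes past the threshold, 6 with edgeR's test, was 14 without TMM factors, 47 without a filter and 0 with at least 10 counts (379 genes at an unadjusted p under 0.05). It was 0 with DESeq2 (58 at an unadjusted p under 0.05), 0 with voom (178) and 0 scaled to ERCC counts (20), 2 to 48 with 1 library left out, and 1208 scaled to endothelial effector counts, or 1185 without krt18a.1, which the epidermal list holds too. That last scaling, without krt18a.1, was chosen after seeing the data.

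Scaled to endothelial effector counts, the folds of etsrp, FLI1, SOX7, LMO2, GATA2 and gfi1aa turned to -0.047, -0.356, -0.452, -1.34, -1.23 and -1.01, and without krt18a.1 to -0.029, -0.32, -0.443, -1.31, -1.21 and -0.98. This scaling moved the median log2 fold of all genes to -1.75, so folds above 0 that are smaller than about this shift turn by construction. Those of etsrp, FLI1 and SOX7 were not small among all genes. In the wider fit they stood at the 93.7th, 90.5th and 89.6th percentile of all folds. With 1 library left out, the fold of FLI1 ranged from -0.266 (without dorsal library 1) to 6.15 (without dorsal library 2, where the dorsal side is at 0 and the fold is no bound), and that of gfi1aa from -0.563 (without ventral library 1) to 1.54. TAL1 and fli1rs kept their direction under every alternative run but not their size. With 1 library left out TAL1 ranged from -0.859 (without dorsal library 1) to -0.314 (without dorsal library 2), and it was called under the endothelial scalings alone. In the same way fli1rs ranged from 0.213 (without dorsal library 1) to 5.34 (without dorsal library 2), SOX7 from 0.675 (without dorsal library 2) to 6.1 (without dorsal library 1), and GATA2 from 0.068 to 0.762. A side left with 1 library is assumed to vary like the other, and folds against a side at 0 are no bound. The ventral excess in vessel-type share, 17.3 points, was 11.5 without etsrp, 22.1 without LMO2 and 14.4 to 20.2 with 1 library left out. No paired analysis was made, because the sample numbers in the labels differ between the sides and no label pairs them. Each ventral number is followed directly by a dorsal one, and the labels do not say whether such neighbours were handled together. Depth limits FLI1, fli1rs, SOX7 and gfi1aa most, with 11 to 37 counts each over all libraries.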
